A study of Homo sapiens with 9 samples.

Results

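The 9 genes described here carry the interferon-gamma signal from the cell surface to the nucleus and restrain it. They are the receptor chains Ifngr1 and Ifngr2, the Janus kinases Jak1 and Jak2, the transcription factors Irf1 and Irf8, and the inhibitors Socs1, Socs3 and Ptpn2. They were listed by name, with earlier results of these data known, as 4 receptor and kinase genes set against 5 induced factors and inhibitors. All 9 had a row among the 17369 genes of the expression table, and all 9 were among the 10263 genes that passed the filter on low values. TBP3743 cells are a mouse line of anaplastic thyroid cancer, derived from B6129SF1 mice with thyroid-specific expression of Braf V600E and deletion of Trp53, so the cells of every group carry both alterations. RNA was measured in 9 orthotopic thyroid tumors grown in 6-week-old female mice and collected on day 14, 3 tumors in each group. The original/B6129SF1 group held original cells in B6129SF1 mice, the adapted/B6129SF1 group held adapted cells in B6129SF1 mice, and the adapted/C57BL/6 group held adapted cells in C57BL/6 mice. The adapted cells had been taken back from tumors after repeated rounds of growth in C57BL/6 hosts. All groups thus come from 1 cell line, original cells in C57BL/6 mice were not analysed here, and every tumor is a mixture of cancer and host cells.

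Interferon-gamma is a cytokine made mainly by T and NK cells. It binds a receptor built from the ligand-binding chain Ifngr1 and the signalling chain Ifngr2, which hold Jak1 and Jak2. These kinases start the signal that drives Irf1 in the nucleus, and Irf1 in turn drives genes of antigen presentation and guanylate-binding proteins. Irf8 is also inducible by interferon-gamma and is expressed above all in macrophages, dendritic cells and B cells. Socs1 is an induced inhibitor that binds the Janus kinases, Socs3 acts mainly on cytokine receptors that use gp130, and Ptpn2 is a phosphatase that acts on Jak1.

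Some tumors stood apart in their cell content. The 8 skeletal muscle markers summed to 5.68% of the total FPKM for adapted/B6129SF1 replicate 3 and to 0.919% for adapted/C57BL/6 replicate 1, with 0.11% or less elsewhere. The summed level of 5 leukocyte markers was 277 to 307 FPKM in the original/B6129SF1 tumors, 405 to 604 in the adapted/B6129SF1 tumors, and 602, 335 and 660 in adapted/C57BL/6 replicates 1, 2 and 3. The label of cancer epithelial cells was checked against markers. The thyroid factor Nkx2-1 was at 23.5 FPKM or more in every tumor, whereas Epcam was at 2.49 FPKM or less in all of them. The keratin Krt8 was 363 to 615 FPKM in the original/B6129SF1 tumors, 153 to 283 in the adapted/B6129SF1 tumors and 221 to 241 in the adapted/C57BL/6 tumors, and it fell in both adapted groups (log2 fold changes -1.32 and -1.12, limma adjusted p = 0.0189 and 0.0346). Of the 4 epithelial markers it alone passed, with Krt18 at -0.94 and -0.93 (limma adjusted p = 0.116 and 0.131). Over all genes tested, 3.92% and 2.77% passed as lower. The other markers did not fall in both adapted groups. Cdh1 was at -0.515 and 0.36 and Epcam at -0.26 and 0.01, so 2 of the 4 were higher in the adapted/C57BL/6 group. The part of epithelial content in the results was not tested. In such bulk samples, fewer cells of a type and less RNA per cell cannot be told apart. FPKM values count fragments per length of transcript after scaling of each library, so levels can be compared between genes. Groups were compared as log2(FPKM + 1) with limma in one model of the 9 tumors, with Benjamini-Hochberg adjustment over all genes tested. A gene passed the test at an adjusted p under 0.05, and it was called a DEG if its log2 fold change was also above 1 in either direction. Both comparisons with the original/B6129SF1 group share its 3 tumors.

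The receptor chains were abundant in every tumor. Ifngr1 was 53.7, 64.9 and 64.4 FPKM in the original/B6129SF1 tumors, 73.3, 73.7 and 94.7 in the adapted/B6129SF1 tumors, and 65.8, 57.5 and 62.1 in the adapted/C57BL/6 tumors. The adapted/B6129SF1 tumors lay above all others, and the adapted/C57BL/6 tumors overlapped the original/B6129SF1 tumors. The difference between the adapted/B6129SF1 and original/B6129SF1 groups was 0.39 on the log2 scale (standard error, SE, 0.13) and did not pass the test (limma adjusted p = 0.0962). The adapted/C57BL/6 group differed from the original/B6129SF1 group by 0.02 (95% confidence interval -0.27 to 0.31) and from the adapted/B6129SF1 group by -0.37 (interval -0.66 to -0.08, limma adjusted p = 0.718). Ifngr2 was the steadier chain, with 56.2, 59.8 and 60.7 FPKM in the original/B6129SF1 tumors, 61.9, 56.0 and 56.7 in the adapted/B6129SF1 tumors, and 61.1, 48.4 and 59.6 in the adapted/C57BL/6 tumors. The 3 groups overlapped. Its differences from the original/B6129SF1 group were -0.02 (interval -0.26 to 0.22) for adapted/B6129SF1 and -0.07 (interval -0.31 to 0.17) for adapted/C57BL/6, so a change of 1 log2 unit lies outside both intervals.

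Jak1, the kinase held by Ifngr1, was 50.6, 49.1 and 47.5 FPKM in the original/B6129SF1 tumors, 66.0, 51.1 and 57.9 in the adapted/B6129SF1 tumors, and 54.9, 62.4 and 60.5 in the adapted/C57BL/6 tumors. Every adapted tumor lay above every original/B6129SF1 tumor, although adapted/B6129SF1 replicate 2 did so narrowly. The log2 fold changes were 0.24 (SE 0.11) and 0.27 (SE 0.11), and neither passed the test (limma adjusted p = 0.195 and 0.171). Jak2, the kinase held by Ifngr2, was several times less abundant, at 14.5, 14.7 and 13.4 FPKM in the original/B6129SF1 tumors, 13.2, 13.0 and 14.2 in the adapted/B6129SF1 tumors, and 15.7, 14.1 and 17.4 in the adapted/C57BL/6 tumors. Its groups overlapped in all 3 comparisons. The interval of its difference was -0.30 to 0.15 for adapted/B6129SF1 and -0.09 to 0.36 for adapted/C57BL/6 against original/B6129SF1. The FPKM ratio of Jak1 to Jak2 was 3.46 ± 0.113 in the original/B6129SF1 group, 4.34 ± 0.580 in the adapted/B6129SF1 group and 3.80 ± 0.555 in the adapted/C57BL/6 group (SD, n = 3 tumors each).

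Irf1 had the widest range of the induced genes. It was 39.7, 30.3 and 30.6 FPKM in the original/B6129SF1 tumors, 42.5, 67.4 and 54.4 in the adapted/B6129SF1 tumors, and 84.8, 82.4 and 116.9 in the adapted/C57BL/6 tumors. The 3 groups did not overlap, with the original/B6129SF1 tumors lowest and the adapted/C57BL/6 tumors highest, but adapted/B6129SF1 replicate 1 came close to the highest original/B6129SF1 tumor. The group means were 33.5 ± 5.35, 54.8 ± 12.5 and 94.7 ± 19.3 FPKM (SD, n = 3 each). Irf1 rose in the adapted/C57BL/6 group with a log2 fold change of 1.46 (SE 0.20, limma adjusted p = 0.00527), a 2.83-fold difference of mean FPKM. The log2 fold change of 0.68 in the adapted/B6129SF1 group (SE 0.20, limma adjusted p = 0.0730) did not pass the test. The direct difference between adapted/C57BL/6 and adapted/B6129SF1 was 0.79 (interval 0.33 to 1.24), which had an unadjusted p of 0.00362 and an adjusted p of 0.538 from limma. A difference of Irf1 between hosts was thus not shown at the threshold used. The Irf1 call in the adapted/C57BL/6 group stood with both muscle-rich tumors left out (1.53, limma adjusted p = 0.0148).

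Irf8 was 8.71, 9.12 and 10.5 FPKM in the original/B6129SF1 tumors, 19.4, 19.6 and 21.3 in the adapted/B6129SF1 tumors, and 22.2, 18.1 and 29.8 in the adapted/C57BL/6 tumors. All 6 adapted tumors lay above the original/B6129SF1 tumors, and the adapted groups overlapped. On the log2 scale Irf8 rose by 1.02 in the adapted/B6129SF1 group (SE 0.16, limma adjusted p = 0.0109) and by 1.20 in the adapted/C57BL/6 group (SE 0.16, limma adjusted p = 0.00527). These are differences of 2.13-fold and 2.48-fold in mean FPKM. The adapted/B6129SF1 value sits at the edge of the DEG definition. It was 0.98 with both muscle-rich tumors left out, and was below 1 without original/B6129SF1 replicate 1, original/B6129SF1 replicate 2 or adapted/B6129SF1 replicate 3, while the gene still passed the test (adjusted p of 0.0416 or less from limma under every setting tried). Between the adapted groups Irf8 differed by 0.18 (interval -0.19 to 0.55).

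Irf8 was also set against markers of leukocytes and macrophages. Per unit of Ptprc, the pan-leukocyte phosphatase CD45, Irf8 was 0.625 ± 0.141 in the original/B6129SF1 group, 0.708 ± 0.152 in the adapted/B6129SF1 group and 0.866 ± 0.214 in the adapted/C57BL/6 group (SD, n = 3 each), and the groups overlapped. The exact two-sided permutation p was 0.5 and 0.2 against the original/B6129SF1 group, where 3 tumors against 3 cannot go below 0.1. Per unit of Csf1r, the receptor of macrophage colony-stimulating factor, Irf8 was 0.146 ± 0.00571, 0.187 ± 0.00327 and 0.327 ± 0.0903 in the same order, with no overlap between groups (exact permutation p = 0.1 for each pair). Csf1r itself was lower without overlap in the adapted/C57BL/6 group than in the adapted/B6129SF1 group (means 76.1 and 107.6 FPKM), which raises this ratio. Of the 7 macrophage markers 2 were higher in that comparison, among them Itgam (means 106.4 and 71.1 FPKM), so the ratio depends on the marker chosen. Of the 5 leukocyte markers, 1 (Cd52) passed the test in the adapted/B6129SF1 group and 0 in the adapted/C57BL/6 group, and none of 7 macrophage markers passed in either. Over all genes tested, 4.37% and 3.99% passed as higher in these groups. With lists this short, such counts do not show whether the content of these cells changed. Of 4 dendritic cell markers tested, 1 and 2 passed. Clec9a, a marker of cross-presenting dendritic cells, passed in both groups with log2 fold changes of 1.96 and 1.89. Batf3 passed in the adapted/C57BL/6 group (0.92, limma adjusted p = 0.0471). Clec9a, Batf3 and Zbtb46 were under 1 FPKM in every original/B6129SF1 tumor. They met the filter on low values only through adapted tumors, so a difference was built into their being tested. The summed dendritic cell markers were 2.91 to 5.64 FPKM in the original/B6129SF1 tumors, 9.98 to 13.5 in the adapted/B6129SF1 tumors and 10.5 to 12.6 in the adapted/C57BL/6 tumors. Much of this rise was Clec9a alone (means 0.27, 4.12 and 3.74 FPKM in the same order). Xcr1 and Flt3, also on the list, were too low to test, and their groups overlapped. The part of immune cell content in the Irf8 levels was not tested. Irf1 per unit of Ptprc was 2.22 ± 0.522, 1.88 ± 0.283 and 3.59 ± 1.16, and the adapted/C57BL/6 tumors did not overlap the adapted/B6129SF1 tumors (exact permutation p = 0.1) but overlapped the original/B6129SF1 tumors (exact permutation p = 0.3).

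None of the 3 inhibitors passed the test in any comparison. Socs1 was 13.4, 14.5 and 14.2 FPKM in the original/B6129SF1 tumors, 12.6, 14.9 and 11.1 in the adapted/B6129SF1 tumors, and 15.5, 13.5 and 17.4 in the adapted/C57BL/6 tumors. The groups overlapped throughout. The log2 differences of Socs1 from the original/B6129SF1 group were -0.12 (interval -0.41 to 0.17) and 0.13 (interval -0.16 to 0.42), with adjusted p of 0.563 and 0.591 from limma. Both intervals lie below the adapted/C57BL/6 interval of Irf1, which was 1.01 to 1.92. The FPKM ratio of Socs1 to Irf1 was 0.338 to 0.479 in the original/B6129SF1 tumors, 0.205 to 0.296 in the adapted/B6129SF1 tumors and 0.149 to 0.183 in the adapted/C57BL/6 tumors. These ranges did not overlap. With Socs1 nearly level, the ratio mostly restates the Irf1 levels, and no test of it is given for that reason.

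Socs3 was 40.5, 41.5 and 50.8 FPKM in the original/B6129SF1 tumors, 40.9, 33.5 and 37.8 in the adapted/B6129SF1 tumors, and 40.8, 32.6 and 40.7 in the adapted/C57BL/6 tumors. The highest value was in original/B6129SF1 replicate 3, and the groups overlapped. Its log2 differences from the original/B6129SF1 group were -0.23 (interval -0.53 to 0.07) and -0.21 (interval -0.51 to 0.09), with adjusted p of 0.295 and 0.364 from limma. Ptpn2 was the least variable inhibitor between tumors, at 30.8, 33.8 and 29.8 FPKM in the original/B6129SF1 tumors, 32.6, 33.7 and 34.9 in the adapted/B6129SF1 tumors, and 32.1, 35.7 and 35.4 in the adapted/C57BL/6 tumors. Its groups overlapped in all 3 comparisons, and its log2 differences from the original/B6129SF1 group were 0.10 (interval -0.10 to 0.29) and 0.12 (interval -0.07 to 0.32).

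**Figure D1:**
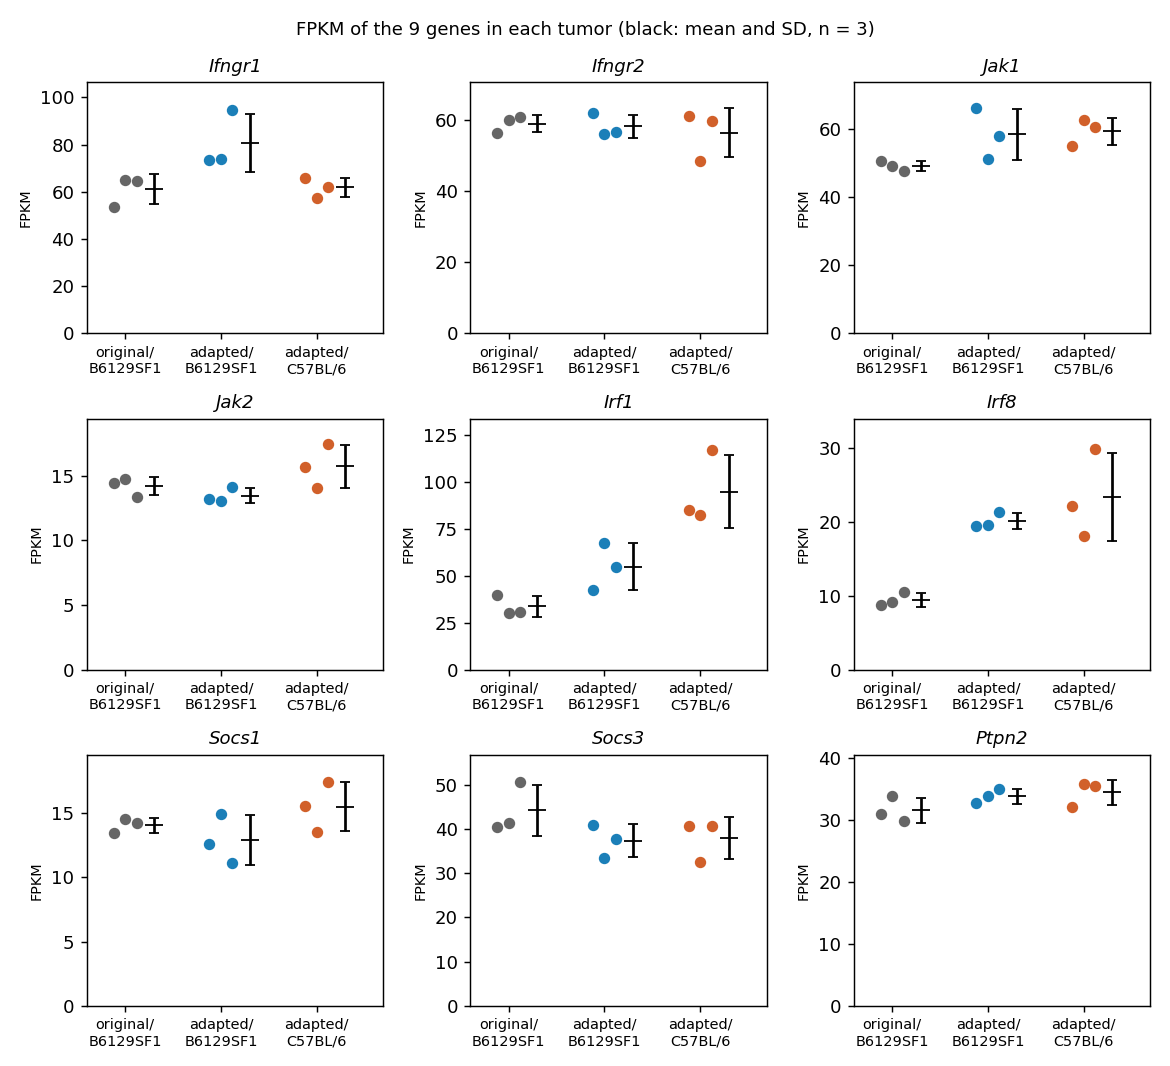
FPKM (vertical axes, starting at 0) of the 9 genes in each of the 3 original/B6129SF1, 3 adapted/B6129SF1 and 3 adapted/C57BL/6 tumors, one panel per gene, with points for tumors in replicate order and black bars for the mean and SD. Irf1 separates all 3 groups and Irf8 separates the adapted tumors from the original/B6129SF1 tumors, whereas Ifngr2, Jak2, Socs1, Socs3 and Ptpn2 overlap between groups.

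Counted together, 1 of the 9 genes passed the test as higher in the adapted/B6129SF1 group (Irf8), where 4.37% of all genes tested did so. In the adapted/C57BL/6 group 2 of 9 did (Irf1 and Irf8), where 3.99% of all genes did. None of the 9 was lower in either group, against 3.92% and 2.77% of all genes. The same 1 and 2 genes were DEGs, among 3.22% and 3.09% of all genes. At an unadjusted p under 0.05 from limma, 3 of the 9 genes differed in each comparison, where 26.5% and 24.4% of all genes did. Tumors of the groups did not overlap for 4 of the 9 genes in the adapted/B6129SF1 group (Ifngr1, Jak1, Irf1 and Irf8) and for 3 in the adapted/C57BL/6 group (Jak1, Irf1 and Irf8), all of them higher. The corresponding share over all genes tested was 29.6% and 32.8%, so separation of 3 tumors from 3 was common in the table. The median log2 fold change of the 9 genes was 0.10 and 0.13, against -0.03 for all genes in both comparisons.

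Between the adapted/C57BL/6 and adapted/B6129SF1 groups, which differ in the host strain and in the supplier of the mice, 0 of the 9 genes passed the test with limma, and 2 (Ifngr1 and Irf1) had an unadjusted p under 0.05, as 6.27% of all genes did. Over all genes 0% were higher and 0.0292% lower by the test, and the same 0.0292% were DEGs. Irf1 was higher and Ifngr1 lower without overlap, where 11.7% of all genes did not overlap. For 8 of the 9 genes the confidence interval of this difference stayed within 1 log2 unit of 0, and Irf1 was the exception.

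The receptors and kinases had a median log2 fold change of 0.11 in the adapted/B6129SF1 group, with a range of -0.07 to 0.39. Their median was 0.08 in the adapted/C57BL/6 group, with a range of -0.07 to 0.27. The induced factors and inhibitors had nearly the same medians, 0.10 and 0.13, but far wider ranges, from -0.23 to 1.02 and from -0.21 to 1.46. The induced set therefore split into Irf1 and Irf8 on one side and Socs1, Socs3 and Ptpn2 on the other. As a summary in each tumor, the mean log2(FPKM + 1) of the induced genes minus that of the receptors and kinases was -0.75, -0.84 and -0.74 in the original/B6129SF1 tumors, -0.72, -0.46 and -0.69 in the adapted/B6129SF1 tumors, and -0.38, -0.40 and -0.19 in the adapted/C57BL/6 tumors. Every adapted/C57BL/6 tumor lay above the others by this measure, and adapted/B6129SF1 replicate 1 lay just above the original/B6129SF1 tumors. In the adapted/C57BL/6 group Irf1 and Irf8 rose by 1.46 and 1.20, while Socs1, Socs3 and Ptpn2 differed by 0.13, -0.21 and 0.12. There the measure mostly restates the Irf1 and Irf8 levels and shows no shift of the induced set as a whole. The group means were -0.78 ± 0.05, -0.62 ± 0.14 and -0.32 ± 0.11 (SD, n = 3 each). No test was made of this summary, because its genes were chosen with results known.

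**Figure D2:**
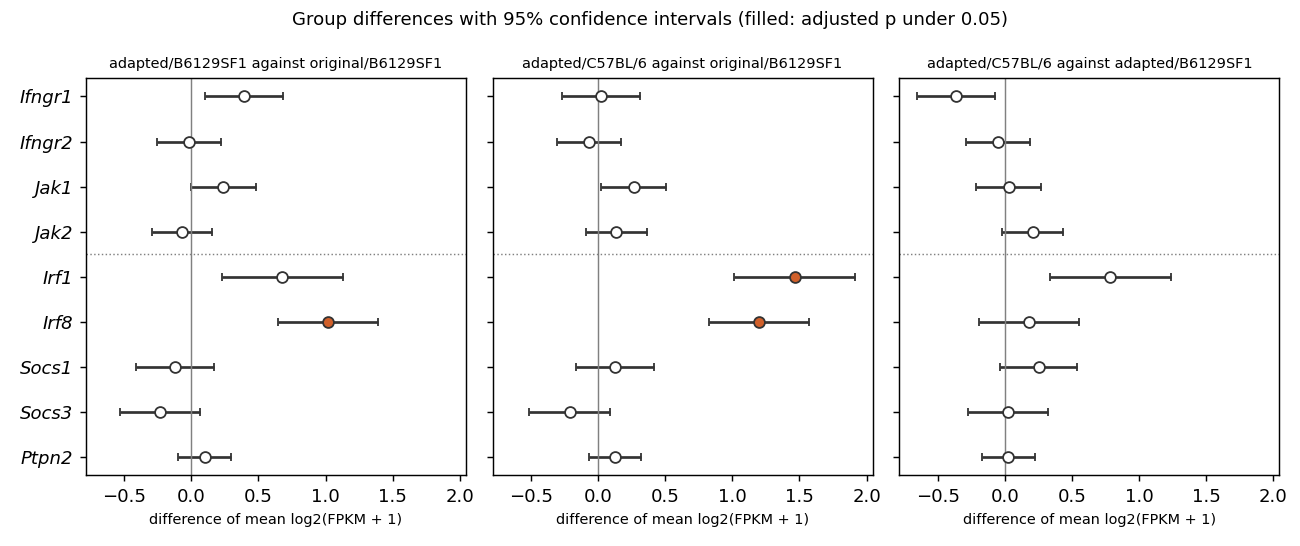
Difference of mean log2(FPKM + 1) (horizontal axes) with its 95% confidence interval from limma for the 9 genes, in the 3 comparisons of groups. Filled points passed the test at an adjusted p under 0.05, and the dotted line divides the receptors and kinases from the induced factors and inhibitors. Irf8 is filled in both comparisons with the original/B6129SF1 group at 1.02 and 1.20, Irf1 at 1.46 in the adapted/C57BL/6 group alone, and no gene is filled between the adapted groups.

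The order of the mean levels changed mainly through Irf1 and Irf8. In the original/B6129SF1 group, Ifngr1 and Ifngr2 (61.0 and 58.9 FPKM) led Jak1 (49.1), Socs3 (44.2), Irf1 (33.5), Ptpn2 (31.5), Jak2 (14.2), Socs1 (14.04) and Irf8 (9.44). Of these neighbours, Ifngr1 and Ifngr2, Jak1 and Socs3, Irf1 and Ptpn2, and Jak2 and Socs1 differed by less than the larger of their SDs over tumors. In the adapted/B6129SF1 group Irf1 (54.8 FPKM) ranked just after Ifngr1 (80.5), Jak1 (58.3) and Ifngr2 (58.2) and within its SD of the last pair. In the adapted/C57BL/6 group Irf1 (94.7 FPKM) ranked above Ifngr1 (61.8), Jak1 (59.3) and Ifngr2 (56.4), which lay within their SD of each other. Socs3 and Ptpn2 followed in both adapted groups, closer to each other than the larger of their SDs. Irf8 moved from the last place to above Jak2 and Socs1 in both adapted groups. Jak2 and Socs1 stayed beside each other in all 3 groups, at 13.5 and 12.9 FPKM in the adapted/B6129SF1 group and 15.7 and 15.5 FPKM in the adapted/C57BL/6 group.

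The genes around these 9 were counted in 5 lists of the pathway, chosen like the 9 with earlier results of these data known. Over all genes tested, 4.37% passed as higher in the adapted/B6129SF1 group and 3.99% in the adapted/C57BL/6 group. An unadjusted p under 0.05 from limma was reached by 26.5% and 24.4% of all genes tested. Of the ligand and its inducers, 4 of 8 genes were high enough to test. Ifng itself was 0.216, 0.107 and 0.202 FPKM in the original/B6129SF1 tumors, 0.158, 1.504 and 0.524 in the adapted/B6129SF1 tumors, and 2.71, 1.45 and 2.72 in the adapted/C57BL/6 tumors. It was thus low everywhere, and adapted/B6129SF1 replicate 1 lay within the range of the original/B6129SF1 tumors. Ifng rose in the adapted/C57BL/6 group (log2 fold change 1.46, limma adjusted p = 0.0230) and did not pass in the adapted/B6129SF1 group (0.48, adjusted p = 0.324). Like Il12rb1, the effector target Ido1 and the dendritic cell markers Clec9a, Batf3 and Zbtb46, it was under 1 FPKM in every original/B6129SF1 tumor. Like them, it met the filter on low values only through adapted tumors, so a difference was built into its being tested. Its call in the adapted/C57BL/6 group held in 11 of the 18 alternatives that tested it. Il12rb1, a receptor chain for interleukin 12, which induces interferon-gamma in T and NK cells, rose in both (1.48 and 1.96, limma adjusted p = 0.0113 and 0.00356). The summed T cell markers were 2.72 to 3.87 FPKM in the original/B6129SF1 tumors, 4.61 to 21.9 in the adapted/B6129SF1 tumors and 14.4 to 22.2 in the adapted/C57BL/6 tumors, and 1 of the 5 (Cd3g) passed in each adapted group. The summed NK cell markers were 1.23 to 2.76, 2.01 to 6.05 and 5.26 to 6.07 FPKM in the same order. Most of this sum was Klrd1 (means 1.65, 3.90 and 4.57 FPKM), which passed in neither adapted group, and Ncr1 and Klrb1c were too low to test. The part of T and NK cell content in the Ifng levels was not tested.

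In a list of 12 other STATs and IRFs 11 were tested, and 2 passed as higher in each adapted group, 0 as lower. Their median log2 fold changes were 0.42 and 0.28, with 6 and 5 genes at an unadjusted p under 0.05 from limma. Stat2, a factor of type I interferon signalling, rose by 0.66 and 1.08 (limma adjusted p = 0.0339 and 0.00601). Irf9, the DNA-binding partner of Stat2, passed in the adapted/C57BL/6 group (0.66, adjusted p = 0.0203) and not in the adapted/B6129SF1 group (0.49, limma adjusted p = 0.0521). Irf5, expressed in myeloid cells, passed in the adapted/B6129SF1 group (0.81, adjusted p = 0.0469) and not in the adapted/C57BL/6 group (0.60, limma adjusted p = 0.119). Irf7 had larger differences of 1.04 and 1.06 but passed in neither group (limma adjusted p = 0.0962 and 0.0982). Stat3, the main target of the receptors that Socs3 restrains, had differences of -0.07 and -0.03. In the adapted/B6129SF1 group the count of 2 was 0 without original/B6129SF1 replicate 1, original/B6129SF1 replicate 3 or any one of the adapted/B6129SF1 tumors, and 1 without original/B6129SF1 replicate 2 or adapted/C57BL/6 replicate 1 or with both muscle-rich tumors left out. In the adapted/C57BL/6 group it was 1 without original/B6129SF1 replicate 1, original/B6129SF1 replicate 3 or adapted/C57BL/6 replicate 3.

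Of 14 other inhibitors, all tested, 0 passed in either direction in either adapted group with limma, where 4 and 2 had an unadjusted p under 0.05, and the median log2 fold changes were 0.02 and -0.07. The list holds further SOCS genes, the PIAS proteins, which bind STATs, and phosphatases. The lowest adjusted p values in the adapted/B6129SF1 group were those of Socs5 (-0.67, limma adjusted p = 0.0742) and Ptpn6 (1.07, limma adjusted p = 0.0767), a phosphatase of blood cells that was 20.4 FPKM in adapted/C57BL/6 replicate 2, the adapted tumor with the lowest leukocyte sum, and 40.6 to 63.0 in the other adapted tumors. Usp18, an interferon-induced inhibitor of the type I receptor, had differences of 0.80 and 0.85 (limma adjusted p = 0.206 and 0.197). Of 10 other cytokine receptor chains and Janus kinases 8 were tested, and 0 passed with limma, where 2 and 1 had an unadjusted p under 0.05. Their median log2 fold changes were 0.17 and 0.09. Ifnar1, a chain of the type I interferon receptor, differed by 0.15 and -0.05, and the kinase Tyk2 by 0.12 and 0.00. Il10ra, a receptor of leukocytes, had the highest values of the list, 0.80 and 0.75 (limma adjusted p = 0.0881 and 0.113).

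Of 14 effector targets 13 were tested. In the adapted/B6129SF1 group 11 rose, against 4.37% of all genes tested, and in the adapted/C57BL/6 group 12, against 3.99%. Their median log2 fold changes were 1.40 and 1.91, and 0 genes passed as lower. The guanylate-binding protein gene Gbp2 had log2 fold changes of 1.78 and 2.77 (limma adjusted p = 0.0122 and 0.00285), and the chemokine gene Cxcl9 of 2.69 and 3.49 (limma adjusted p = 0.00933 and 0.00305). Both passed under all 19 alternatives in both groups. Cd274, which encodes PD-L1, was 6.29, 4.75 and 3.70 FPKM in the original/B6129SF1 tumors, 7.42, 8.81 and 8.67 in the adapted/B6129SF1 tumors, and 14.5, 15.1 and 22.4 in the adapted/C57BL/6 tumors. Like Irf1, it kept the 3 groups apart and passed in the adapted/C57BL/6 group alone (0.67 and 1.63, limma adjusted p = 0.0761 and 0.00360). Ciita, the coactivator of MHC class II genes, had the opposite order of the adapted groups, with 2.60, 7.47 and 5.20 FPKM in the adapted/B6129SF1 tumors and 2.34, 1.63 and 2.33 in the adapted/C57BL/6 tumors. It passed in the adapted/B6129SF1 group (1.56, limma adjusted p = 0.0159) and not in the adapted/C57BL/6 group (0.67, adjusted p = 0.193), and the difference between the adapted groups had an adjusted p of 0.632. The count of 11 in the adapted/B6129SF1 group was fragile. It was 3 with both muscle-rich tumors left out, 5 without original/B6129SF1 replicate 2, 2 without original/B6129SF1 replicate 3, and 4 without adapted/B6129SF1 replicate 2 or replicate 3. The count of 12 in the adapted/C57BL/6 group was 11 with both muscle-rich tumors left out and 7 without adapted/C57BL/6 replicate 3. Between the adapted groups 0 genes of any of the 5 lists passed with limma. Of the 13 effector targets 6 had an unadjusted p under 0.05 from limma, against 6.27% of all genes tested.

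**Figure D3:**
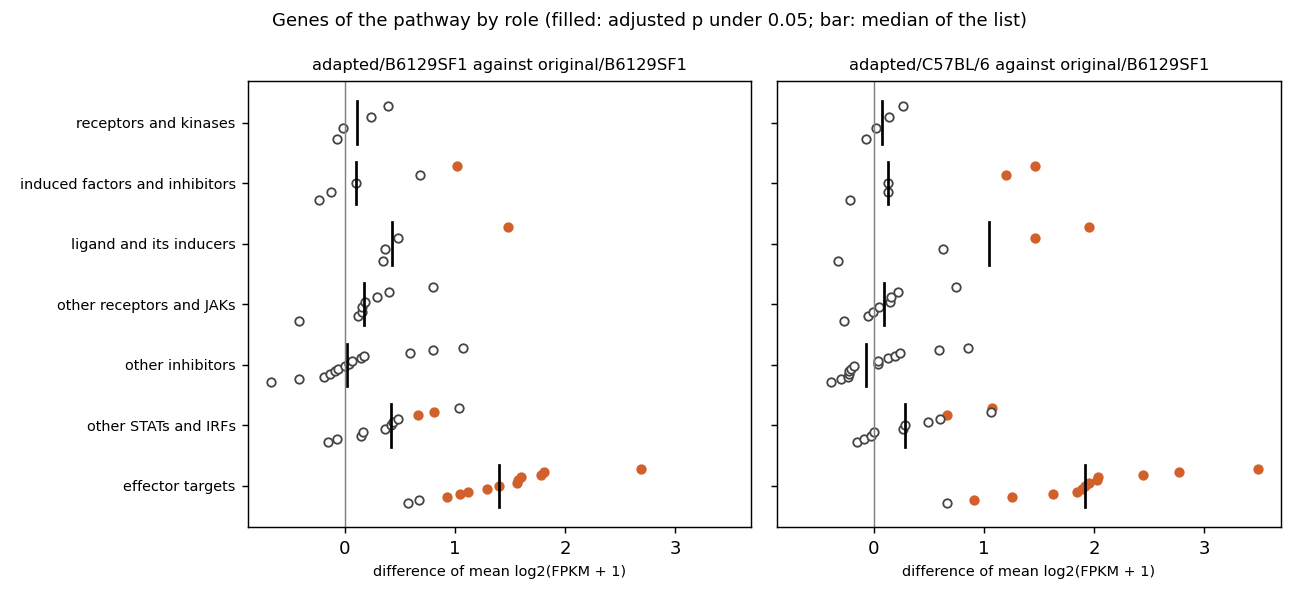
Difference of mean log2(FPKM + 1) from the original/B6129SF1 group (horizontal axes) for each gene tested, grouped by role, in the adapted/B6129SF1 and adapted/C57BL/6 groups. Filled points passed the test at an adjusted p under 0.05 and vertical bars are list medians. The medians of receptors, kinases and inhibitors stay near 0, and the effector targets lie at medians of 1.40 and 1.91.

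The genes whose levels ran closest to Irf1, Irf8 and Socs1 over the 9 tumors were found by the root mean square difference of log2(FPKM + 1) values centred on each gene's mean. For Irf1 they were Cd274 (0.16 log2 units), Smpdl3b (0.18), B2m (0.21), Tapbpl (0.21) and Tapbp (0.22). B2m is the light chain of MHC class I, and Tapbp and Tapbpl act in loading peptides on it. For Irf8 they were Fcgr1 (0.16), Nod1 (0.17), Sdc3 (0.17), Trim12a (0.18) and Samhd1 (0.18), of which Fcgr1 encodes a high-affinity IgG receptor of macrophages and monocytes. For Socs1 they were Rabepk (0.05), Aga (0.08), Tlk1 (0.08), Clic1 (0.08) and Slc39a6 (0.08). With each gene scaled to unit variance, the 5 nearest genes shared 1 of 5 with this list for Irf1, 0 of 5 for Irf8 and 5 of 5 for Socs1. The points share their tumors and their cell content, and the lists are descriptions.

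The tumors of a group did not rise together. In adapted/B6129SF1 replicate 1, Irf1 was 1.27 times the original/B6129SF1 mean while Irf8 was 2.05 times that mean, and the summed T cell markers stood at 1.34 times. In adapted/B6129SF1 replicates 2 and 3, Irf1 was 2.01 and 1.62 times, Irf8 2.08 and 2.26 times, and T cell markers 6.35 and 5.40 times the original/B6129SF1 mean. The adapted tumor with the lowest T cell markers also had the lowest Irf1, and its Irf8 level was close to that of the other tumors of its group. This is 1 tumor. In adapted/C57BL/6 replicates 1, 2 and 3, T cell markers were 6.43, 4.18 and 5.49 times and Irf1 2.53, 2.46 and 3.49 times the original/B6129SF1 mean. The part of T cell content in the Irf1 and Irf8 levels was not tested.

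In adapted/C57BL/6 replicate 2 the leukocyte markers were 1.16 times the original/B6129SF1 mean, the lowest of the adapted tumors, while the T cell markers were 4.18 times that mean and the dendritic cell markers summed to 11.8 FPKM. Irf1 was 2.46 times and Irf8 1.92 times the original/B6129SF1 mean in this tumor. It had the lowest level of its group in 7 of the 9 genes. Adapted/C57BL/6 replicate 3 had Irf1 at 3.49 times, Irf8 at 3.16 times and the leukocyte markers at 2.29 times the original/B6129SF1 mean, the highest of all 9 tumors for each. Socs1 and Jak2 were at 1.24 and 1.23 times in that same tumor and between 0.793 and 1.11 times in the other adapted tumors. The part of leukocyte content in these levels was not tested.

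**Figure D4:**
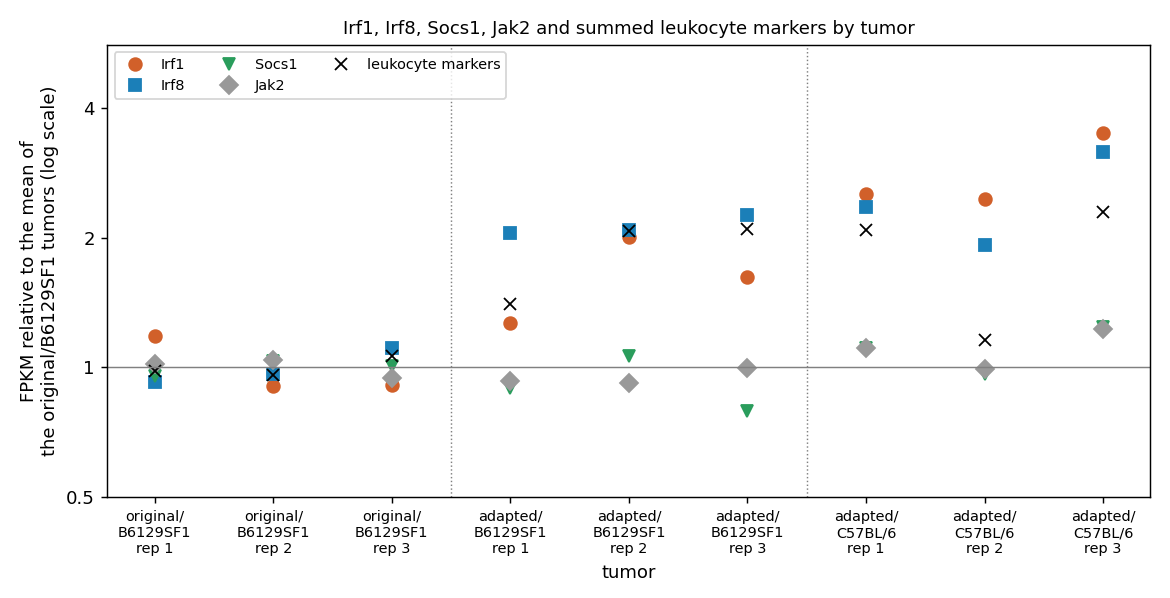
FPKM of Irf1, Irf8, Socs1 and Jak2 and the sum of 5 leukocyte markers in each of the 9 tumors, relative to the mean of the 3 original/B6129SF1 tumors (vertical log axis). Irf1 and Irf8 lie above 1 in all 6 adapted tumors, including adapted/C57BL/6 replicate 2 with leukocyte markers at 1.16, and Socs1 and Jak2 stay between 0.793 and 1.24.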

How the data were processed

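RNA from 9 tumors was measured, each tumor taking its group and replicate number (a biological replicate) from its labels. After paired-end sequencing on a HiSeq2000, the authors aligned the reads to mm10 with HISAT2 and made the deposited FPKM values with Cuffnorm. The gene annotation and the Cuffnorm scaling are not given in the sources used here. FPKM values are not counts, so the depth is unknown and the number of tumors limits the precision.

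The scale was log2(FPKM + 1), which understates changes of low genes. Tests covered every gene that reached 1 FPKM in 3 or more tumors, by limma 3.58.1 (R 4.3.3) with lmFit and a trended eBayes. Single ratios used exact two-sided permutation tests. The procedure was tested on simulated data with independent noise for each gene, which lacked the shared differences in cell content of these tumors. At most 0.0487% of genes tested had equal values in any pair of tumors.

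The members and lists were chosen with earlier results of these data known. Genes named are the 9 members, genes of the counted lists, the 5 genes nearest to Irf1, Irf8 and Socs1, and markers. Examples within lists were picked after their values were seen, as were the markers other than Ptprc and muscle. Alternatives were a replicate block, only the groups compared, other scalings, filters and thresholds, a pseudocount of 0.1, no trend, both muscle-rich tumors left out, and each tumor left out in turn. Their use on the other pathway genes was added after the data were seen. Genes without a row and a mouse genome or annotation were not used here, so no sequences or coordinates are given, and 1 gene of the pathway lists is not reported here.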

Additional observations from a re-analysis of the deposited data

How the results depend on the processing

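The log2 fold changes of the 9 genes in the 3 comparisons were recomputed under 19 alternatives, which gave 513 values. In 512 the direction of called genes and the side of the threshold were kept. The exception was Irf1 in the adapted/B6129SF1 group without adapted/B6129SF1 replicate 1, which then passed (0.85, limma adjusted p = 0.0427). Irf1 in the adapted/C57BL/6 group ranged from 1.30 to 1.59 (adjusted p from 0.00378 to 0.0298 from limma) and Irf8 from 1.01 to 1.36 (0.00399 to 0.0223). In the adapted/B6129SF1 group Irf8 ranged from 0.97 to 1.09 and passed in 19 of 19, but the count of DEGs among the members was 0 with both muscle-rich tumors left out and 0 to 1 with single tumors left out, because its fold change fell just below the DEG limit. The counts of 2 and 0 in the other comparisons were kept under every alternative. The induced minus receptor difference between groups ranged from 0.07 to 0.20 for adapted/B6129SF1, from 0.39 to 0.49 for adapted/C57BL/6 against original/B6129SF1, and from 0.23 to 0.38 between the adapted groups. For adapted/C57BL/6 against original/B6129SF1 this difference mostly restates the Irf1 and Irf8 levels.

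The tumors showed no steady pairing by replicate number. Correlations of same-numbered tumors ranged from -0.39 to 0.61, and 0, 3 and 2 of 6 tumors correlated best with their own number in the 3 comparisons. Replicate 2 had positive correlations in each comparison (0.03, 0.30 and 0.61). With 3 tumors in a group, this check cannot exclude a pairing. With a replicate block the members called were 1, 2 and 0, as without it. The effector targets that passed were 5 in the adapted/B6129SF1 group with the replicate block instead of 11, and 10 instead of 12 in the adapted/C57BL/6 group. The ligand list in the adapted/C57BL/6 group gave 1 instead of 2, and the STAT and IRF list 1 instead of 2 in both groups.

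The DEGs over all genes, from which the background shares come, were 330, 317 and 3 and moved by over 1.5 times under some alternatives. They were 141 without original/B6129SF1 replicate 3 for adapted/B6129SF1, 177 and 156 without original/B6129SF1 replicate 3 and adapted/C57BL/6 replicate 3 for adapted/C57BL/6, and 0 to 6 between the adapted groups, with 6 without adapted/B6129SF1 replicate 1 and 0 without adapted/C57BL/6 replicate 3. Genes that passed the test, 850 and 693 against the original/B6129SF1 group, ranged from 211 to 872 and from 203 to 819. The causes were not tested. The STAT and IRF list in the adapted/B6129SF1 group gave 0 to 4 genes instead of 2, with 4 under upper quartile scaling, 1 without the mean-variance trend and 0 when each tumor was scaled to the same sum or with no filter on low values. A filter of 5 FPKM removed the ligand list's called genes from the test. No limit from depth could be set.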
